A study of Mus musculus with 12 samples.

Results

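The nuclear genome of mice encodes most protein subunits of the oxidative phosphorylation machinery, and 84 gene identifiers of this kind were followed here in Neuro-2a cells, a mouse neuroblastoma line. They are the protein-coding genes of the GENCODE M21 annotation whose symbols begin with the usual names of the subunits (Nduf a, b, c, s or v with a digit, Sdha to Sdhd, Uqcr, Cox4 to Cox8, or Atp5), without Ndufa4l2. The name rule itself uses no values, but the set was chosen with earlier results of these data known. The deposited files hold 55401 gene identifiers, and 17569 passed a filter on low counts, among them 80 of the 84. By name the set holds 36 identifiers for complex I, 4 for complex II, 8 for complex III, 18 for complex IV and 18 for complex V. Atp5o accounts for 2 identifiers, so there are 83 symbols. The name rule puts Ndufa4 with complex I, although its protein is known as a subunit of complex IV, and it also takes Cox7a2l, a supercomplex factor, and Atp5s, named as a coupling factor of ATP synthase. It does not take Ndufab1, Cyc1 or the electron carrier Cycs, which are given with the other genes of the pathway.

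The study measured RNA from 12 libraries in 3 groups of 4. In every group the cells of a well received 1 µg of a GFP plasmid (pCAGGs-linkB-IRES-GFP) together with 3 µg of plasmid carrying an artificial microRNA in a miR30 backbone behind the pCAG promoter. That microRNA was a scramble sequence (miScramble), a pool of 3 plasmids against Rbmx (miRbmx), or a pool of 2 plasmids against Rbmxl1 (miRbmxl1). Rbmx encodes an RNA-binding protein and Rbmxl1 is a retrocopy of it. GFP-positive cells were sorted after 48 hours, so the sort selects on the GFP plasmid and not on the microRNA plasmid, and neither knockdown is a deletion. The labels number the biological replicates of each group 1 to 4 without saying what a number stands for, so p-values measure the spread between these samples. The RNA is from sorted cells in bulk, and more RNA in every cell cannot be told apart from more cells with a high level.

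Oxidative phosphorylation takes place in the inner mitochondrial membrane. Complexes I and II feed electrons from NADH and succinate into ubiquinone, complex III passes them to cytochrome c and complex IV to oxygen. Complexes I, III and IV pump protons, and complex V, the ATP synthase, uses the resulting gradient to make ATP. Complexes I, III, IV and V combine nuclear-encoded subunits with a few encoded by the mitochondrial genome, while all subunits of complex II are nuclear. Neuroblastoma cells in culture are proliferating cells that carry the ubiquitous forms of the subunits, and several subunits of complex IV have further isoforms typical of muscle, lung or testis.

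Each library held between 43.1 and 52.2 M reads assigned to genes (M, 1e6), and the members took from 0.813% to 1.06% of them. Rbmx stood at 57.6 to 73.3 CPM (counts per 1e6 reads, from scaled library sizes) in scramble and at 22.2 to 32.6 CPM in its knockdown. Rbmxl1 stood at 31.3 to 36.7 CPM in scramble and at 12.3 to 16.7 CPM in its knockdown, so both targeted genes were lower in every library of the group meant to reduce them. In the Rbmxl1 knockdown Rbmx rose, to 81.9 to 90.04 CPM, above all scramble libraries (log2 fold change 0.36, adjusted p 0.0165 in edgeR), so the knockdowns moved Rbmx in opposite directions. Rbmxl1 was at 34.2 to 38.3 CPM in the Rbmx knockdown (0.08, adjusted p 0.601). As a retrocopy it may share reads with Rbmx, which was not tested. Of 12 neuroblastoma markers 10 were tested, and in each knockdown 1 rose and 0 fell: Mycn, by 0.56 ± 0.12, adjusted p 0.0126 in the Rbmx knockdown and by 0.66 ± 0.12, adjusted p 0.00843 in the Rbmxl1 knockdown (log2 fold change ± SE). Hand2 stood at 330.5 to 446 CPM over the 12 libraries, while Nefl and Nefm were near 0. Of 8 markers of immune cells, fibroblasts, astrocytes and endothelium, 6 did not pass the filter, Gfap reached at most 0.391 CPM and Pecam1 at 4.62 to 7.82 CPM.

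Promoter sequences are shown for 3 members whose RNA was higher in the Rbmx knockdown: Ndufb6 and Ndufv3, accessory subunits of complex I, and Atp5g3, which encodes a c subunit of ATP synthase. Transcription of many subunit genes is known to depend on NRF1, on ETS factors such as GABP, and on YY1, so the letters of their core sites were searched for on both strands. Each stretch runs 5′ to 3′ on the strand of the gene, lies upstream of the start and outside annotated exons, and comes from RefSeq on build GRCm38.p6. Capitals mark a match to TGCGCA (NRF1 half-site), CCGGAAG (ETS core, or CTTCCGG on the other strand), AAGATGG (YY1 core) or ACGTG (hypoxia response core). CACGTG holds ACGTG on both strands.
Ndufb6, chr4:40279422-40279671, minus strand: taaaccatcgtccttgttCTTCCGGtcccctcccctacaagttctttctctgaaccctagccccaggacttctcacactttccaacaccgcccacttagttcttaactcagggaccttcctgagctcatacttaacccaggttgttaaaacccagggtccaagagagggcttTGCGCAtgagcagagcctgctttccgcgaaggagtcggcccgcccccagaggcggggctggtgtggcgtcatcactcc
Ndufv3, chr17:31519981-31520114, plus strand: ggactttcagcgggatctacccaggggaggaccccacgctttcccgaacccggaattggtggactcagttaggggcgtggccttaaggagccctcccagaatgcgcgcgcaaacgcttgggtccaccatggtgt
Atp5g3, chr2:73911327-73911576, minus strand: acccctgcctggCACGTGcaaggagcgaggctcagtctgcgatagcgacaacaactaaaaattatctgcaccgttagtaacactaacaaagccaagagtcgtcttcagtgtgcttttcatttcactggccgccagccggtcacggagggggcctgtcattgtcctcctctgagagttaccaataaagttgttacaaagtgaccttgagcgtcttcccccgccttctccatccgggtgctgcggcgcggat
The Ndufb6 stretch holds 1 ETS core and 1 NRF1 half-site, and the Atp5g3 stretch holds a CACGTG. The 134 bases of Ndufv3 hold no match, while its whole 300-base window holds 1 ACGTG that is not in the printed stretch.

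Promoter windows of 300 bases were found for 68 of the 83 symbols, 2 of them under another symbol. TGCGCA was present in 26.5% of these 68 windows and in 8.06% of all 27025 windows of the table. CCGGAAG was present in 22.1% of the members' windows against 9.12% of all, AAGATGG in 14.7% against 6.48%, and ACGTG in 26.5% against 19.7%. The members' windows also had a higher GC content, with a median of 57.2% against 52.7%, and its part in these shares was not tested. Among the members tested, TGCGCA was present in 29.2% of the 24 whose RNA rose in the Rbmx knockdown and in 26.2% of the 42 that did not pass the test, and CCGGAAG in 20.8% and 23.8%. AAGATGG was present in 8.33% (2 windows) and 19% (8 windows), and ACGTG in 25% and 26.2%. None of these differences was tested. A match of letters is a description and does not show binding.

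In scramble cells, the ATP synthase catalytic subunit Atp5b had the highest level of all members, with 1953 ± 167 CPM (SD, n = 4), or 461 ± 39.4 CPM per kb of exon. Levels between genes are compared per kb of the union of annotated exons, which makes them approximate for genes with long rare exons. On that scale, the highest members of complexes II, III and IV were Cox6a1 (260.0 ± 14.1 CPM per kb), a subunit of complex IV, Sdhb (94.7 ± 6.06), the iron-sulfur subunit of complex II, and Uqcrq (76.2 ± 5.48), a small subunit of complex III. The median level per kb in scramble was 27.5 for the 36 tested members of complex I, 49.1 for complex II, 49.9 for complex III, 58.3 for the 15 of complex IV and 31.9 for the 17 of complex V. The members spread least within complexes II and III and most within IV and V. With the length of 1 principal transcript in place of the exon union, Atp5b again led at 1019 CPM per kb, but Cox4i1 (364) passed Cox6a1 (319.6) within complex IV.

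**Figure D1:**
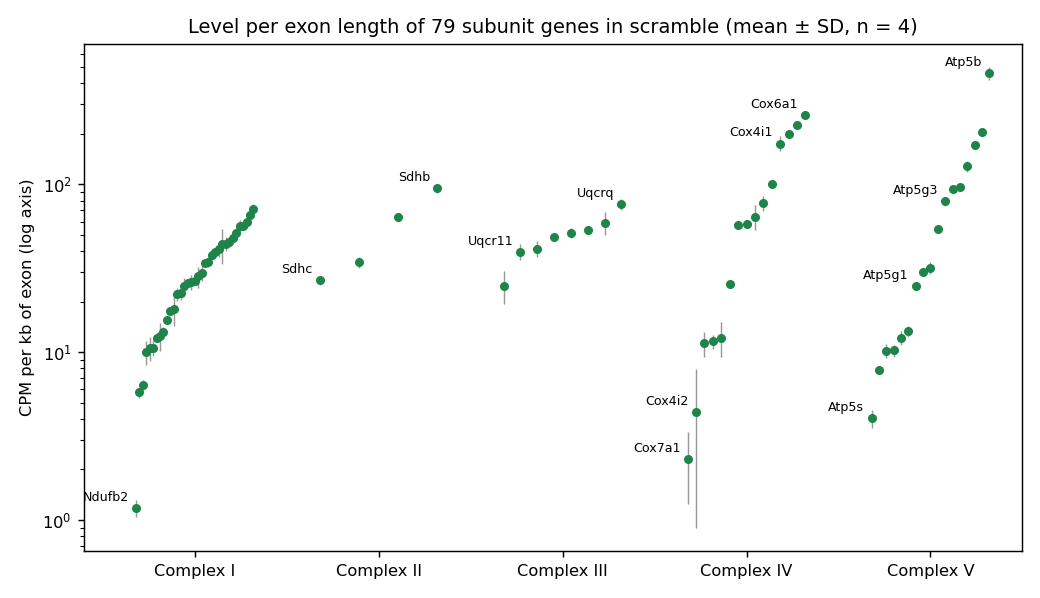
Level of 79 tested members in scramble libraries, in CPM per kb of exon on a log axis, grouped by complex and sorted within each. Points are means and bars SD over 4 libraries; Atp5b stands highest and Ndufb2, with a long annotated exon length, lowest at 1.18 CPM per kb.

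Several subunits of complex IV have isoforms, whose levels are given in scramble per kb of exon. Cox4i1, the common form of subunit 4, had 175 ± 17.9 CPM per kb, and Cox4i2, the form known from lung and induced by low oxygen, had 4.39 ± 3.49 CPM per kb. Cox6a1 had 260.0 ± 14.1 CPM per kb against 11.6 ± 1.10 CPM per kb for the muscle form Cox6a2. Cox7a2 had 101 ± 2.87 CPM per kb against 2.30 ± 1.06 CPM per kb for the muscle form Cox7a1, and the related Cox7a2l had 64.1 ± 10.7 CPM per kb. Cox7b had 25.5 ± 0.447 CPM per kb against 12.2 ± 2.88 CPM per kb for Cox7b2, a smaller gap. The partners of Cox6b1 (198.4 ± 7.24 CPM per kb) and Cox8a (224.8 ± 6.79 CPM per kb) did not pass the filter. Cox6b2, a testis form, had 2 reads in scramble replicate 3, 2 in Rbmx knockdown replicate 1 and 0 in the other libraries. Cox8b had 0 reads in all 12 libraries and Cox8c had 1 read, in Rbmxl1 knockdown replicate 2. The 3 genes for the c subunit, whose mature proteins are known to be identical, had 96.1 ± 5.05 (Atp5g2), 79.6 ± 4.98 (Atp5g3) and 24.8 ± 1.23 (Atp5g1) CPM per kb of exon, and 365, 243 and 204 CPM per kb of the principal transcript. Atp5g2 was the highest and Atp5g1 the lowest on both scales. The fourth identifier that did not pass the filter is the additional Atp5o entry (ENSMUSG00000116933), with 0 reads; 89.8% of its 50-base words also occur among 3 other genes, so most of its reads could not be told apart from theirs.

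The first comparison asked which members change when Rbmx is reduced. In the Rbmx knockdown 27 of the 80 members rose and 0 fell against scramble, at a Benjamini-Hochberg adjusted p under 0.05 over all 17569 genes in edgeR's quasi-likelihood test with the replicate number as a block. Over all genes tested, 4.16% were called higher and 4.19% lower, against 33.75% and 0% of the members; among nuclear protein-coding genes alone the share called higher was 5.60%. The changes were small. The called members were 1.15 to 1.94 times their scramble level, with a median of 1.199 times. The fitted log2 fold change was above 0 for 75 of the 80, and its median was 0.19, with quartiles of 0.15 and 0.24, where the median over all genes was 0.00 and 50% of genes were above 0. At an unadjusted p under 0.05, 55 members were higher and 0 lower, against 12.3% and 12.5% of all genes. In same-numbered pairs of libraries, 54 members were higher in 4 of 4 (17.7% of all genes), including all 27 of those called. For 24 members every Rbmx knockdown library stood above every scramble library, against 4.22% of all genes, and 19 of these were among the 27. For 0 members every library stood below (3.85% of all genes), and 0 were lower in 4 of 4 pairs (16.8% of all genes).

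The sum over the 80 members was 8192, 8837, 8517 and 8883 CPM in scramble, replicates 1 to 4, 9866, 10009, 10145 and 10333 CPM in the Rbmx knockdown, and 9649, 8465, 9833 and 10013 CPM in the Rbmxl1 knockdown. All 4 Rbmx knockdown libraries lay above all 4 scramble libraries. Among the Rbmxl1 knockdown libraries, replicate 2 lay within the scramble range and the other 3 above it. The median of the members' log2 levels relative to their mean over the 12 libraries ran from −0.17 to −0.04 in scramble and from 0.06 to 0.15 in the Rbmx knockdown, also without overlap.

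**Figure D2:**
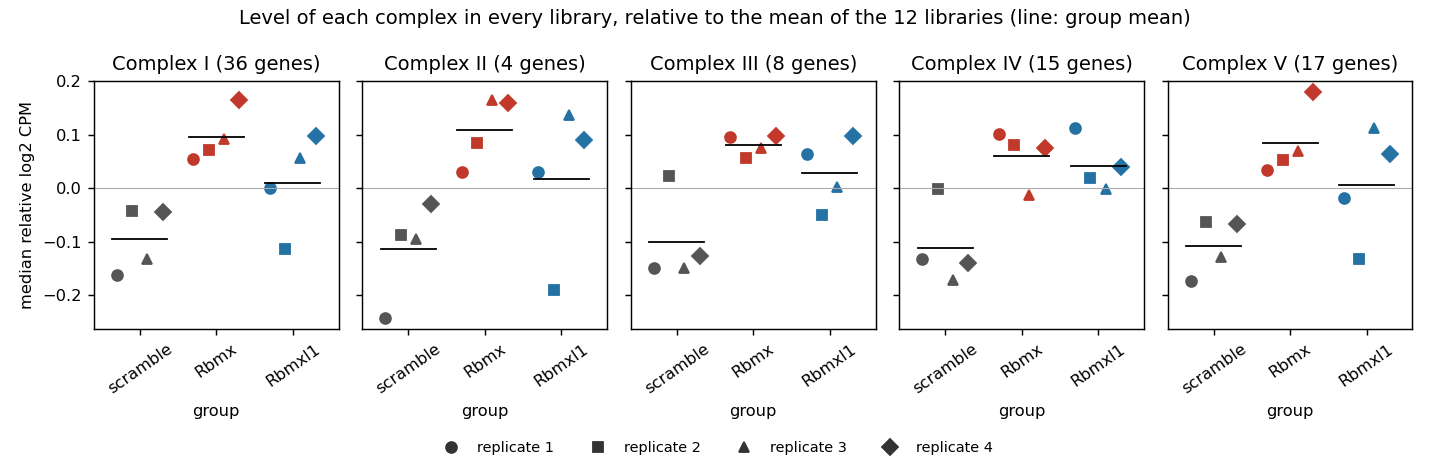
Median over the tested members of a complex of log2 CPM relative to the mean of the 12 libraries, for each library by group, with replicate numbers as symbols and group means as lines. Scramble libraries are the lowest group mean in all 5 complexes, and Rbmxl1 knockdown replicate 2 (blue square) lies apart from the other Rbmxl1 knockdown libraries in complexes I, II and V.

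These calls rest on the block and on single libraries. Without the replicate block 0 of the 80 members were called (37 were higher at an unadjusted p under 0.05, against 5.48% of all genes, the lowest adjusted p was 0.266, and 1 gene of all, 0.00569%, was called), while the median change was 0.19 as well. The libraries fell into replicates 1 and 2 and replicates 3 and 4, and with these 2 sets as the block in place of the 4 numbers, a fit chosen after seeing the data, 26 members were called, all among the 27, against 3.8% of all genes called higher. Leaving out 1 library left 3 members called without scramble replicate 1, 2 without scramble replicate 3, 7 without scramble replicate 4, 16, 8, 8 and 14 without Rbmx knockdown replicate 1, 2, 3 or 4, and 21 to 35 without any other library. The share of all genes called higher moved too, from 0.688% without scramble replicate 3 to 5.6% without Rbmxl1 knockdown replicate 2. Among the called members described below, Ndufv3 was called in all 12 of these fits, and each of the others tested this way lost its call in 2 to 8 of them. The median change stayed between 0.18 and 0.23 throughout. When a trend of the log ratio on gene length was removed, 12 members were called, against 3.18% of all genes called higher, and the median was 0.15. DESeq2 with the block called 31 members higher and 5.58% of all genes.

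**Figure D3:**
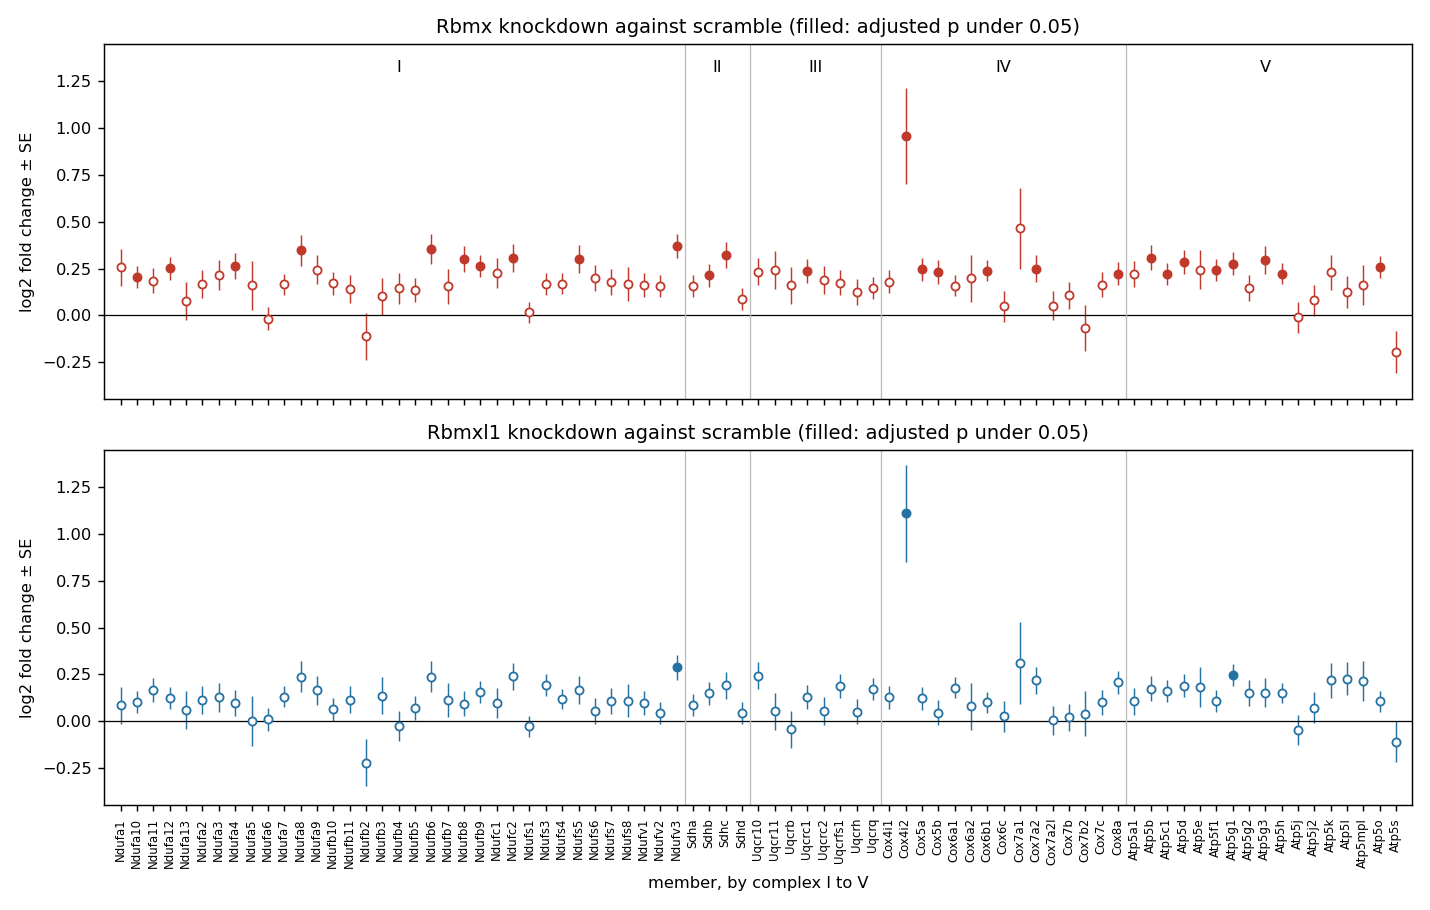
Log2 fold change ± SE of 79 tested members against scramble, for the Rbmx knockdown (top) and the Rbmxl1 knockdown (bottom), in the same order by complex; filled points have an adjusted p under 0.05. Most points lie above 0 in both panels, and Cox4i2 stands highest in both.

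In complex I, 10 of the 36 members rose, with a median log2 fold change of 0.17 over the 36. The 7 core subunits, which carry the flavin and the iron-sulfur clusters and bind ubiquinone (Ndufs1 and Ndufv1 among them), had changes from 0.01 to 0.18 and none passed the test. The other 28 members apart from Ndufa4 are accessory subunits. Of these 9 rose (Ndufa8, Ndufa10, Ndufa12, Ndufb6, Ndufb8, Ndufb9, Ndufc2, Ndufs5 and Ndufv3), as did Ndufa4. These subgroups were formed after the results were known, and a difference between them was not tested.

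Ndufv3 (ENSMUSG00000024038, chr17:31520115-31531331, plus strand, GRCm38) encodes an accessory subunit of the NADH-oxidising module. Ndufv3 was measured at 64.7, 71.1, 46.8 and 48.5 CPM in scramble, 77.5, 96.8, 60.7 and 63.8 CPM in the Rbmx knockdown and 78.4, 76.6, 60.3 and 63.5 CPM in the Rbmxl1 knockdown, replicates 1 to 4 in order. Within each same-numbered trio the scramble library was the lowest, while replicates 1 and 2 stood above replicates 3 and 4 in every group, so that the groups overlapped. In the Rbmx knockdown it rose by 0.37 ± 0.06 (log2 fold change ± SE, as in all such values), adjusted p 0.00666, and was called in 24 of 26 alternative settings; the exceptions were the fit without the block and the fit within replicates 1 and 2.

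Ndufb6 (ENSMUSG00000071014, chr4:40270591-40279421, minus strand) encodes an accessory subunit of the membrane arm, and its promoter is printed above. The Ndufb6 levels of replicates 1 to 4 were 23.5, 26.3, 28.7 and 29.8 CPM in scramble, 29.0, 32.1, 39.7 and 38.0 CPM in the Rbmx knockdown and 32.2, 25.04, 37.5 and 33.3 CPM in the Rbmxl1 knockdown. Each Rbmx knockdown library was above the scramble library with its number, and the groups overlapped. It rose by 0.35 ± 0.08, adjusted p 0.0173. Smim27 overlaps it on the opposite strand, and the strand setting of the counting is not given in the sources used here.

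Ndufa8, an accessory subunit on the intermembrane-space side, had separate ranges in scramble and the Rbmx knockdown. In replicates 1 to 4, Ndufa8 stood at 47.9, 50.3, 46.3 and 49.7 CPM in scramble, at 58.7, 63.3, 61.0 and 64.2 CPM in the Rbmx knockdown and at 56.2, 46.0, 66.0 and 61.8 CPM in the Rbmxl1 knockdown. All 4 Rbmx knockdown libraries were above all 4 scramble libraries, and Rbmxl1 knockdown replicate 2 was below them all. The change in the Rbmx knockdown was 0.35 ± 0.08, adjusted p 0.0200. Ndufc2 (0.31 ± 0.07, adjusted p 0.0197) was at 40.9 to 48.2 CPM in scramble and 53.6 to 60.1 CPM in the Rbmx knockdown, and Ndufb9 (0.26 ± 0.06, adjusted p 0.0159) at 34.2 to 36.5 and 38.6 to 47.2 CPM, both without overlap. For Ndufb8 (0.30 ± 0.07, adjusted p 0.0159) the ranges were 29.9 to 37.7 and 35.7 to 50.5 CPM and overlapped. Gm49356 overlaps Ndufb9 and Gm20538 overlaps Ndufb8 on the same strand, so part of their reads may have been counted as ambiguous.

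Ndufs1, the largest iron-sulfur subunit of the core, is given as an example of a member with overlapping groups. Ndufs1 was measured at 94.8, 109, 113 and 107 CPM in scramble, 95.2, 101, 122 and 112 CPM in the Rbmx knockdown and 98.7, 93.3, 114 and 110.1 CPM in the Rbmxl1 knockdown, replicates 1 to 4 in order. The 3 groups overlapped over nearly their whole range, and the change in the Rbmx knockdown was 0.01 ± 0.06, adjusted p 0.899. Ndufb2 and Ndufa6 were the complex I members with fitted changes below 0 (−0.11 ± 0.12 and −0.02 ± 0.06), and neither passed the test.

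Complex II, succinate dehydrogenase, has a flavoprotein (Sdha), an iron-sulfur protein (Sdhb) and a pair of membrane anchors (Sdhc and Sdhd). Sdhb and Sdhc rose in the Rbmx knockdown, and Sdha and Sdhd did not pass the test. The Sdhc levels of replicates 1 to 4 were 78.3, 90.2, 90.6 and 88.9 CPM in scramble, 101, 107, 114 and 113 CPM in the Rbmx knockdown and 101, 82.1, 111 and 104 CPM in the Rbmxl1 knockdown. Sdhc (ENSMUSG00000058076, chr1:171127165-171150603, minus strand) was higher in every Rbmx knockdown library than in any scramble library and changed by 0.32 ± 0.07, adjusted p 0.0149. Its scramble replicate 1 lay below the other 3 scramble libraries, and leaving out any 1 of scramble replicates 1 and 3 and Rbmx knockdown replicate 2 took its adjusted p to between 0.0565 and 0.0660, with changes of 0.28 to 0.30. Sdhb changed by 0.21 ± 0.06, adjusted p 0.0421, from 196 to 228 to 232 to 258 CPM, also without overlap. The corresponding values were 0.15 ± 0.06 for Sdha (adjusted p 0.114) and 0.08 ± 0.06 for Sdhd (adjusted p 0.404). Sdhd and Ndufa7 had the narrowest spread over the 12 libraries (SD of log2 CPM) among members at 1 CPM or more, with highest levels 1.21 and 1.26 times the lowest.

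In complex III 1 of 8 members passed the test, although all 8 fitted changes lay between 0.12 and 0.24, with a median of 0.18. Uqcrc1, a core protein of the complex, stood at 194, 211, 217 and 231 CPM in scramble and at 241, 237, 263 and 262 CPM in the Rbmx knockdown, replicates 1 to 4. The lowest Rbmx knockdown library was above the highest scramble library, and the change was 0.24 ± 0.06, adjusted p 0.0358. Uqcr11, a small subunit, had the largest fitted change of the complex (0.24 ± 0.10) but a wide spread, with 22.7 to 29.1 CPM in scramble and 25.2 to 37.4 CPM in the Rbmx knockdown, and its adjusted p was 0.146. Uqcr10, another small subunit, was at 29.5 to 32.5 CPM in scramble and 36.4 to 37.3 CPM in the Rbmx knockdown, without overlap, and narrowly missed the threshold (0.23 ± 0.07, adjusted p 0.0593).

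Complex IV, cytochrome c oxidase, had 6 of 15 tested members that rose: Cox4i2, Cox5a, Cox5b, Cox6b1, Cox7a2 and Cox8a. Cox5a and Cox5b are matrix-side subunits, and Cox6b1 faces the intermembrane space. In replicates 1 to 4, Cox6b1 stood at 142, 147, 137 and 136 CPM in scramble, at 164, 159, 169.8 and 170.1 CPM in the Rbmx knockdown and at 145, 143, 150.2 and 164 CPM in the Rbmxl1 knockdown. Cox6b1 (ENSMUSG00000036751, chr7:30616861-30626151, minus strand) had narrow, separate ranges in scramble and the Rbmx knockdown, with a change of 0.24 ± 0.06, adjusted p 0.0212. Cox8a was at 133 to 143 CPM in scramble and 159 to 165 CPM in the Rbmx knockdown, again without overlap (0.22 ± 0.06, adjusted p 0.0363).

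The isoforms of complex IV differed in their values. Cox4i2 (ENSMUSG00000009876, chr2:152754173-152765037, plus strand) had the largest change of all members. Cox4i2 was measured at 4.23, 7.003, 0.928 and 1.68 CPM in scramble, 6.43, 14.0, 2.81 and 3.07 CPM in the Rbmx knockdown and 8.68, 7.48, 5.15 and 3.38 CPM in the Rbmxl1 knockdown, replicates 1 to 4 in order. Every knockdown library was above the scramble library with the same number, but replicate 1 and 2 libraries stood above those of replicates 3 and 4 in all groups, and the groups overlapped. It rose by 0.96 ± 0.25 in the Rbmx knockdown, adjusted p 0.0313, from a low level. Leaving out any 1 of scramble replicates 1, 3 and 4 or of Rbmx knockdown replicates 2, 3 and 4 took its adjusted p to between 0.0563 and 0.152. Its highest library was 15.1 times its lowest, the widest spread of any tested member at 1 CPM or more; Cox7a1 followed with 3.35 times. Cox4i1 changed by 0.18 ± 0.06 and did not pass the test (adjusted p 0.0857). Cox7a2 rose by 0.25 ± 0.07 (adjusted p 0.0424), while Cox7a1 (0.47 ± 0.22, adjusted p 0.197) and Cox7a2l (0.05 ± 0.08, adjusted p 0.732) did not pass. The fitted values of Cox6a1 and Cox6a2 were 0.16 ± 0.06 and 0.20 ± 0.13, and those of Cox7b and Cox7b2 0.11 ± 0.07 and −0.07 ± 0.12, none of which passed the test. Differences between isoforms were not tested.

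Complex V had 8 of 17 tested members that rose, with a median change of 0.22 over the 17. Of the 5 genes for the F1 head, Atp5b, Atp5c1 and Atp5d rose, and Atp5a1 (0.22 ± 0.07, adjusted p 0.0675) and Atp5e (0.24 ± 0.11, adjusted p 0.165) did not pass the test. The Atp5b levels of replicates 1 to 4 were 1741, 1913, 2027 and 2131 CPM in scramble, 2199, 2338, 2571 and 2551 CPM in the Rbmx knockdown and 2149, 1810.0, 2413 and 2458 CPM in the Rbmxl1 knockdown. Atp5b (ENSMUSG00000025393, chr10:128083273-128090391, plus strand) was higher in every Rbmx knockdown library than in any scramble library, with a change of 0.31 ± 0.07, adjusted p 0.0150. Atp5d, the delta subunit of the head, was at 316 to 345 CPM in scramble and 379.8 to 452 CPM in the Rbmx knockdown (0.28 ± 0.06, adjusted p 0.0154), also without overlap.

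Of the 4 genes for the peripheral stalk, Atp5f1, Atp5h and Atp5o rose, while Atp5j, which encodes coupling factor 6, had a fitted change of −0.01 ± 0.08 (adjusted p 0.948). Atp5o, the subunit that joins the stalk to the head, was at 57.0 to 61.9 CPM in scramble and 66.2 to 78.0 CPM in the Rbmx knockdown. Its change was 0.26 ± 0.06, adjusted p 0.0156. The additional Atp5o entry overlaps it on the same strand, so part of its reads may have been counted as ambiguous. D430001F17Rik and Gm15976 overlap it on the opposite strand. None of the 4 small membrane subunits (Atp5j2, Atp5k, Atp5l and Atp5mpl) passed, with changes from 0.08 to 0.23, and Atp5s had the lowest fitted change of all members (−0.20 ± 0.11, adjusted p 0.287).

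The 3 genes for the c subunit did not give the same call. In replicates 1 to 4, Atp5g1 stood at 114, 122, 129 and 122 CPM in scramble, at 141, 132, 157 and 161 CPM in the Rbmx knockdown and at 134, 125, 157 and 164 CPM in the Rbmxl1 knockdown. Atp5g1 (ENSMUSG00000006057, chr11:96068852-96075670, minus strand) rose by 0.28 ± 0.06 in the Rbmx knockdown (adjusted p 0.0149), with no overlap between the groups. Atp5g3 was at 163 to 184 CPM in scramble and 194 to 233 CPM in the Rbmx knockdown (0.30 ± 0.08, adjusted p 0.0280), also without overlap. Atp5g2 was at 151 to 172 and 156 to 212 CPM, overlapping, and did not pass the test (0.15 ± 0.07, adjusted p 0.214). Some reads of Atp5g1 and Atp5g2 can be lost to other genes, since over 10% of their 50-base words occur elsewhere in the annotation.

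**Figure D4:**
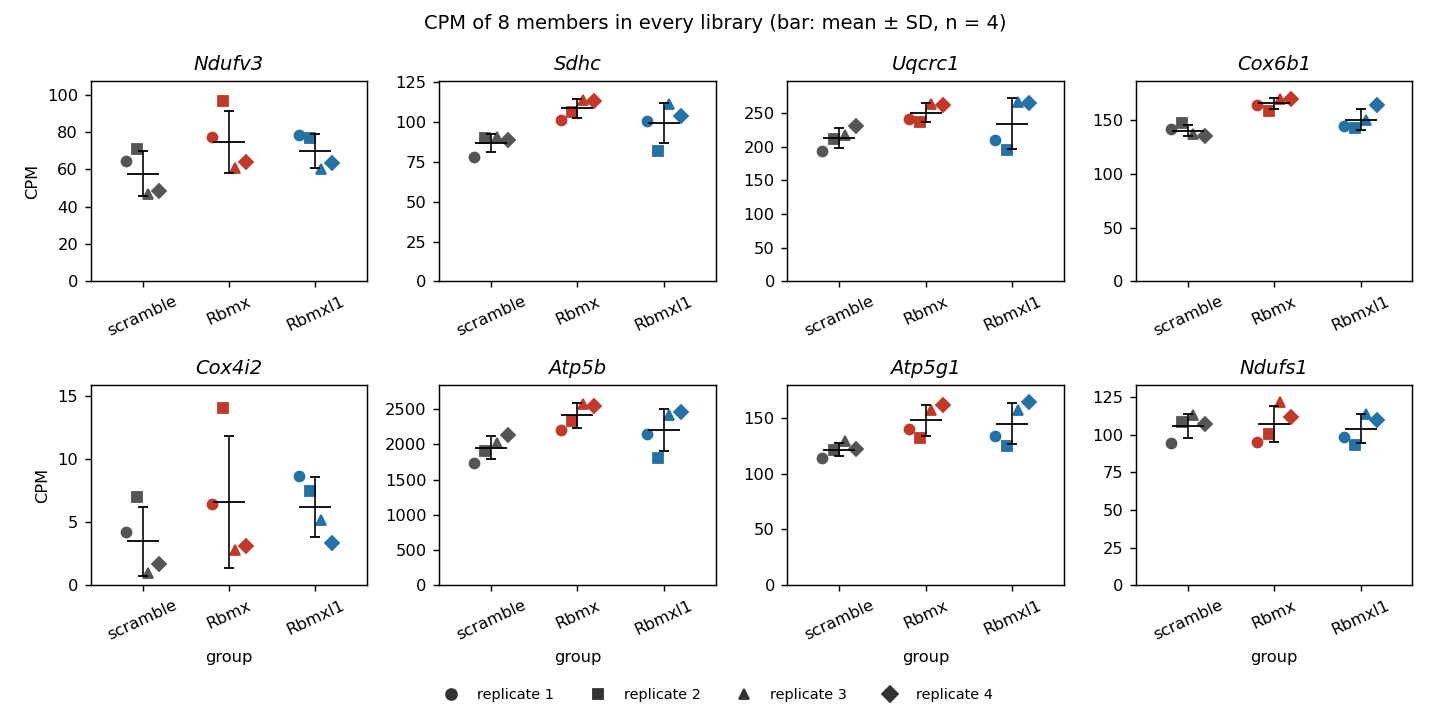
CPM of 8 members in every library by group, with replicate numbers as symbols and bars for mean ± SD of 4 libraries; each axis starts at 0. Ndufs1 shows overlapping groups, Sdhc, Uqcrc1, Cox6b1, Atp5b and Atp5g1 show Rbmx knockdown libraries above all scramble libraries, and Ndufv3 and Cox4i2 show replicates 1 and 2 above 3 and 4.

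The second comparison asked the same of Rbmxl1. In its knockdown 3 of the 80 members rose and 0 fell, against 2.25% and 2.2% of all genes, so the share of members called (3.75%) was near the background. The fitted changes were above 0 for 74 of 80 members, where 51.4% of all genes were, with a median of 0.11 against 0.01 over all genes. At an unadjusted p under 0.05, 28 members were higher and 0 lower, against 10.3% and 9.49% of all genes. In 4 of 4 same-numbered pairs 15 members were higher (13.4% of all genes) and 0 lower (12.6%), and for 3 members all Rbmxl1 knockdown libraries stood above all scramble libraries (2.88% of all genes), with 0 below (2.79%). The medians by complex were 0.11, 0.12, 0.09, 0.10 and 0.15 for complexes I to V. The 3 called members were Ndufv3 (0.29 ± 0.06, adjusted p 0.0251), Cox4i2 (1.11 ± 0.26, adjusted p 0.0281) and Atp5g1 (0.25 ± 0.06, adjusted p 0.0336), all of which rose in the Rbmx knockdown too. The values given above show all 3 higher than the same-numbered scramble library in every Rbmxl1 knockdown library, with the group ranges overlapping. Both comparisons use the same scramble libraries, so the 72 members above 0 in both knockdowns are not independent evidence.

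Replicate 2 of the Rbmxl1 knockdown had the lowest level of its group in 43 of the 80 members. The share of all genes for which it was lowest was not computed, so this is not shown to be particular to the members. For Atp5b this library stood at 1810 CPM and the others at 2149 to 2458. The median difference from the same-numbered scramble library was 0.19, −0.06, 0.21 and 0.14 in pairs 1 to 4, where the Rbmx knockdown gave 0.23, 0.12, 0.23 and 0.23. Without Rbmxl1 knockdown replicate 2, 18 members were called, all of them higher, and the median change was 0.16; in that fit 3.24% of all genes were called higher, where it was 2.25% with all libraries. Without any 1 of the other Rbmxl1 knockdown libraries, or of scramble replicates 1, 3 and 4, 0 were called, and 1 was called without scramble replicate 2. Without the block the count was 0 as well, with 10 members higher at an unadjusted p under 0.05 against 4.43% of all genes, and a lowest adjusted p of 0.438. Uqcr10 had the largest fitted change in complex III (0.24 ± 0.07, adjusted p 0.0693), Sdhc in complex II (0.19 ± 0.07, adjusted p 0.135), and neither passed the test.

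The knockdowns were then compared directly, which asks whether the members differ between them. No member passed the test in edgeR or in DESeq2. In edgeR 6 members had an unadjusted p under 0.05, all higher in the Rbmx knockdown (2.15% of all genes were higher and 3.56% lower), and the lowest adjusted p was 0.859. Over all genes 0.00569% were called higher and 0.00569% lower, 1 gene each, which were Rbmxl1 and Rbmx. The fitted difference was above 0 (higher in the Rbmx knockdown) for 67 of 80 members and 48.8% of all genes, with a median of 0.07, and the median was 0.02 without Rbmxl1 knockdown replicate 2. Cytosolic ribosomal protein genes, another set of short and abundant transcripts, were above 0 in 73 of 81 in this comparison, with a median of 0.06. For 3 members all Rbmx knockdown libraries were above all Rbmxl1 knockdown libraries (0.569% of all genes), and 18 were higher in 4 of 4 pairs (5.63% of all genes). Ndufb8 had the lowest p, with a difference of 0.21 ± 0.07, followed by Cox5b (0.19 ± 0.06) and Atp5o (0.15 ± 0.06). The members called in the Rbmx knockdown alone are therefore not shown to differ between the knockdowns.

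The members also varied with the replicate number, which the block takes into account. The replicate term was called for 26 of the 80 members (32.5%) and for 35.3% of all genes, so the members were near the background. For 5 members all 6 libraries of replicates 3 and 4 stood below all 6 of replicates 1 and 2 (10.6% of all genes), and for 0 members above (9.4% of all genes). These 5 were Ndufa6, Ndufv3, Uqcrh, Cox7a2l and Cox7b2. Ndufa6 was measured at 92.9, 97.8, 62.9 and 63.5 CPM in scramble, 102, 87.7, 58.3 and 66.1 CPM in the Rbmx knockdown and 96.8, 93.9, 60.2 and 68.1 CPM in the Rbmxl1 knockdown, replicates 1 to 4 in order. Ndufa6 was thus about as high in the knockdowns as in scramble, while the replicate sets did not overlap. When a term was added for a knockdown effect that differs between replicates 1 and 2 and replicates 3 and 4, it was called for 0 members and 0 of all genes in either knockdown, with 12 and 14 members (15% and 17.5%) at an unadjusted p under 0.05, against 11.1% and 8.33% of all genes. Within replicates 1 and 2 alone, 0 members were called in the Rbmx knockdown, where 0.0115% of all genes were called higher, and the median change was 0.18. Within replicates 3 and 4 the median was 0.22, with 31 called, against 4.91% of all genes. For the Rbmxl1 knockdown the medians were 0.08 and 0.18, with 0 and 15 members called against 0.0919% and 2.8% of all genes called higher.

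Other genes of the pathway gave other counts. Of the 13 subunits encoded by the mitochondrial genome 0 rose in the Rbmx knockdown and 1 fell (7.69%, against 4.19% of all genes). It was mt-Nd6 (−0.51 ± 0.08, adjusted p 0.00522), and the median over the 13 was −0.10. In the Rbmxl1 knockdown 0 were called and the median was 0.10. Mean levels over all libraries ran from 1.47 CPM (mt-Atp8) to 6153 CPM (mt-Co1), with mt-Co2 at 55.7 CPM and mt-Co3 at 41.9 CPM. The reason for this range was not tested, and genes with few reads count as much in these medians as abundant ones. The summed level of the 13 varied widely between libraries, from 9593 to 13979.6 CPM over the 12 libraries. Of the 3 subunits or carriers that the name rule misses, Cyc1, the cytochrome c1 of complex III, rose in the Rbmx knockdown (0.24 ± 0.05, adjusted p 0.0163), and Cycs (0.20 ± 0.09, adjusted p 0.172) and Ndufab1 (0.06 ± 0.07, adjusted p 0.676) did not pass the test. Of 47 tested assembly factors, which help build the complexes without being part of them, 4 rose and 0 fell in each knockdown (8.51%). Of all genes 4.16% and 2.25% were called higher, and of nuclear protein-coding genes 5.60% and 2.96%. The medians of the assembly factors were 0.06 and 0.11. Ndufaf3 and Timmdc1, which assemble complex I, and Cox14, which assembles complex IV, rose in both. Ecsit rose in the Rbmx knockdown and Sdhaf1 in the Rbmxl1 knockdown.

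Among 11 tested regulators of mitochondrial genes, Esrra rose in the Rbmx knockdown (0.20 ± 0.06, adjusted p 0.0474). Yy1 (−0.22 ± 0.06, adjusted p 0.0426) and Tfb2m (−0.33 ± 0.08, adjusted p 0.0182) fell there. The shares called higher and lower were 9.09% and 18.2%, against 4.16% and 4.19% of all genes. Yy1 fell in the Rbmxl1 knockdown as well (−0.25 ± 0.06, adjusted p 0.0350), where 2.2% of all genes were called lower. Calls of single genes in the lists outside the 84 members were not repeated in fits without a library. The values for Nrf1 and Gabpa, whose sites were searched for in the promoters, were 0.16 ± 0.06, adjusted p 0.107 and −0.10 ± 0.06, adjusted p 0.297 in the Rbmx knockdown, and neither passed the test. Of 77 tested mitochondrial ribosomal protein genes 5 rose and 0 fell in the Rbmx knockdown (6.49%, near the 5.60% of nuclear protein-coding genes). Their median was 0.08, with 59 of the 77 above 0. In 4 of 4 same-numbered pairs 22 of them were higher and 4 lower (17.7% and 16.8% of all genes). Of 81 cytosolic ribosomal protein genes, 1 rose and 0 fell (1.23%), with a median of 0.07 and 69 of the 81 above 0. In the Rbmxl1 knockdown 0 genes of either list were called, and the medians were 0.03 and 0.00. Differences between lists were not tested.

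**Figure D5:**
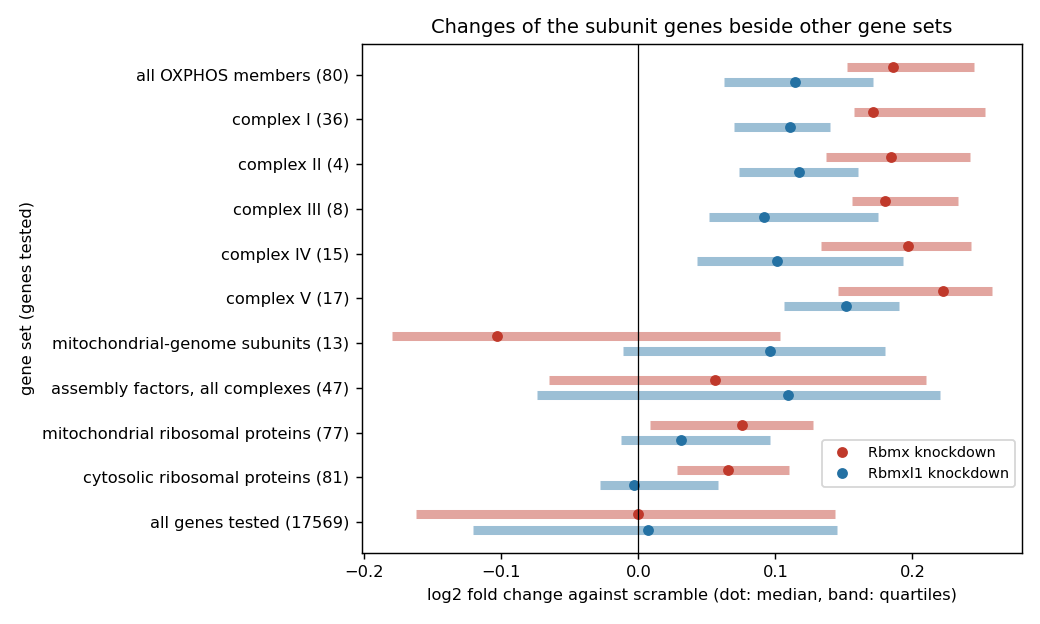
Median (dot) and quartiles (band) of log2 fold changes against scramble for the subunit genes, each complex and other gene sets, with the number of genes tested. The medians of the 5 complexes lie from 0.17 to 0.22 in the Rbmx knockdown and from 0.09 to 0.15 in the Rbmxl1 knockdown, while all genes tested centre near 0.

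The called members overlapped widely with the others in level, at 3.46 to 1953 CPM in scramble against 1.23 to 641 CPM, and no difference between these sets was tested. Their median scramble level was 94.9 CPM, against 40.9 CPM for the 53 that did not pass, and their median SE was 0.06 against 0.07; their median exon length was 1908 bases against 1495. A gene on the opposite strand overlapped 5 of the 27 called members and 20 of the 53 others, and the strand setting of the counting is not known here. A gene on the same strand overlapped 3 of the 27 and 2 of the 53. For 6 of the 27 and 6 of the 53, over 10% of their 50-base words occur in other genes. The members that did not pass still had a median change of 0.16. At these SEs a change of the size seen in the median member was often not detectable, so a member that missed the threshold is not shown to be unchanged.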

How the data were processed

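The labels place 12 libraries in 3 groups of 4. The authors deposited raw counts, 1 whole number per Ensembl gene identifier and library, without normalization. The submitters' processing notes name STAR 2.5.3a, HTSeq 0.6.1p1, R 3.3.2, DESeq2 1.16.1 and the build mm10, the assembly of GENCODE M21; annotation, strand setting and read length are not given in the sources used here. The 5 rows that name no gene (52.3% to 57.4% of a file) were left out.

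The counts went through edgeR 4.0.16 (R version 4.3.3): filterByExpr (minimum count 10, minimum total 15), TMM scaling, and quasi-likelihood F tests over all 12 libraries with the replicate number as a block. The members' rule asks for this block. The numbers were taken as pairing the samples: deviations from the group means correlated at r 0.195 to 0.524 in all 12 same-number pairs. They did so at 0.100 to 0.431 in 12 pairs of other numbers within replicates 1 and 2 or 3 and 4, and at −0.573 to −0.129 in 24 pairs across these sets, so the values separate 2 sets rather than 4 numbers. No libraries were identical. Members were called at adjusted p under 0.05. Each SE is the log2 fold change over the square root of F. Alternatives changed the block, scaling, filter, gene universe, length and GC trends, replicate set, libraries and tool (DESeq2 1.42.0); limma 3.58.1 was loaded with edgeR.

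Members and lists were chosen with earlier results of these data known. Named were called members (at most 12 per comparison, lowest p first), the highest member per kb and the largest changes per complex, fixed isoform groups, members missing the filter, and those of widest and narrowest spread. Other members, and the 3 promoters, were named after their values were seen. Single values of 1 member and 1 marker are not reported here.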

Additional observations from a re-analysis of the deposited data

Results flagged for a closer look

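In 37 members or sums, each in 3 groups of 4 libraries, 2 groups had a library whose gap to the nearest other, over the group's whole range, passed Dixon's 95% critical value for 4; chance gives about 1 in 20. Sdhc in scramble replicate 1 was at 78.3 CPM, below 88.9 to 90.6 CPM in the other 3 (ratio 0.863). Ndufa7 in Rbmxl1 knockdown replicate 4 was at 103 CPM, above 92.2 to 92.9 CPM in the other 3 (ratio 0.942).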

How the results depend on the processing

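The numbers of called members depended on the processing, and the median changes did not change sign. For the Rbmx knockdown, 27 members were called. The fit without the replicate block, in which pairing is ignored, called 0, the fit with the length trend removed 12, and the fit within replicates 1 and 2 called 0. Leaving out 1 library gave 2 to 35 (0.688% to 5.6% of all genes called higher) and leaving out 1 replicate number 1 to 27 (0.399% without replicate 3 to 2.99% without replicate 2). The other scaling, the unfiltered table, nuclear protein-coding genes alone, the GC trend, replicates 3 and 4 alone and DESeq2 gave 25 to 32 (3.16% to 6.31% of all genes). The block on 2 replicate sets, chosen after seeing the data, gave 26, and 3 for the Rbmxl1 knockdown. For the Rbmxl1 knockdown, 3 were called; without the block 0, without a filter on low counts 6 (1.83% of all genes called higher), with nuclear protein-coding genes alone 6 (4.35%), within replicates 1 and 2 called 0, within replicates 3 and 4 called 15, and with DESeq2 7 (3.6%). Leaving out 1 library gave 0 to 18 (0.364% to 3.24%) and leaving out 1 number 0 to 12 (0.313% to 2.28%). All called members were higher in each of these fits. The cause of these differences was not tested. Fits within replicate sets or without a library hold fewer samples, and some of them called more members than the fit with all libraries. The direct comparison called 0 members throughout. The replicate term was called for 19 to 30 members. In the main fit it was called for 26 (32.5%), against 35.3% of all genes. The shares of all genes in the other fits are not given here, so the range is not a result about the members. Where an arm was left with fewer libraries, its spread is assumed to be that of the other groups. Over all settings with the block, the median change was above 0 in each knockdown. Depth was 43.1 to 52.2 M reads in genes; Cox7a1, the lowest tested member in CPM, had 815 reads over the 12 libraries.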
